A study of Mus musculus with 8 samples.

Results

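The proteasome is the protease that takes apart proteins marked with ubiquitin, and the genes described here encode its subunits, activators, inhibitor and assembly chaperones. They are the rows of the deposited table whose name starts with Psm, a letter from a to g and a digit, with names of pseudogenes (ending in -ps) dropped: 47 of 13677 rows. Of these, 46 encode parts or regulators of the proteasome. The remaining row, Psmc3ip, is caught by its name only: it encodes a partner of meiotic recombinases and is kept apart below. All 47 passed the minimum level for testing, so none was lost to a filter on low values. Psma8 and Psmb11, tissue-restricted subunits of testis and thymus, have no row among the 47 and were not analysed here.

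The libraries come from poly(A) RNA of mouse ventricular heart tissue in a series on loss of Vhl in a Wt1-Cre model. The product of Vhl recognises substrates for a ubiquitin ligase. In the presence of oxygen this ligase sends hypoxia-inducible factors to the proteasome by their alpha subunits. The labels name 3 groups: DKO (n = 3, libraries 1, 2 and 3), KO (n = 2, libraries 1 and 3) and C (n = 3, libraries 1, 2 and 3). The series sets Vhl-deficient ventricles against wild-type ventricles, but the labels leave unsaid what the abbreviations stand for, what else was changed in DKO, the age and strain of the animals, and how many animals made up a library. Every direction given here is one between libraries with these labels. Cre driven by Wt1, a gene of the epicardium, is active in part of the heart's cells only. The labels record no treatment. Since no label calls the libraries of a group separate animals, the spread behind each p-value is that of these libraries and may be technical.

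Libraries held 15028176 to 21202385 reads, and the members took 24560 to 73234 reads in a library, with at least 20 reads for every member in each. Levels are the deposited signal, reads in proportion to a scaled library size, and library values are given in the order of their numbers. The scaling factors were 0.705 to 1.06 in DKO, 1.36 and 1.37 in KO and 0.925 to 0.964 in C. DKO 2 stood apart, with 41.6% of its reads from the mitochondrial genome against 16.2% to 29.9% in the other 7 libraries. Vhl itself was 11.2, 10.9 and 8.61 in DKO, 8.33 and 8.96 in KO and 8.97, 7.504 and 7.26 in C. This is a level over the whole gene in whole tissue, and the labels do not say which part of the gene was removed, so it does not check the labels. Ventricular cardiomyocyte markers were abundant in all libraries, with 0 of 9 at 0 reads in any. Their summed signal was 54112, 38442 and 63627 in DKO, 38709.9 and 43639 in KO and 63519, 66662 and 63959.5 in C, so it was lowest in DKO 2 and both KO libraries.

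As background, the proteasome consists of a barrel, the 20S core, and caps that feed it. The core stacks rings of alpha subunits (Psma genes), which form the gate, on rings of beta subunits (Psmb genes), of which Psmb5, Psmb6 and Psmb7 give the cutting sites. Under interferon these are replaced by Psmb8, Psmb9 and Psmb10, giving the immunoproteasome that makes peptides for antigen presentation. The 19S cap holds a ring of ATPases (Psmc genes) that unfold substrates, and non-ATPase subunits (Psmd genes) that bind ubiquitin chains and remove them. Other caps are made by Psme genes, Psmf1 encodes an inhibitor, and Psmg genes encode chaperones that build the core. In heart muscle this system turns over sarcomere and signalling proteins. The transcription factor encoded by Nfe2l1 is known to raise many subunit genes together when proteasome activity falls.

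The 100 bases before the annotated start are shown for 5 members that differed in opposite directions between KO and C. Psmb5, Psmb6 and Psmd4 were among the lower ones, and Psmd1 and Psmd11 had the largest positive differences. Psmg4, Psmg1 and Psmb4 fell further than Psmb5 and Psmd4. Sequences are from RefSeq, build GRCm38.p6, 5′ to 3′ on the gene's strand, and capitals mark matches to the motifs named after them.
Psmb5, chr14:54617996-54618095, minus strand: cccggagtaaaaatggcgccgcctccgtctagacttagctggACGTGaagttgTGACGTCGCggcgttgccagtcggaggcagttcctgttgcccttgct
Psmb6, chr11:70525257-70525356, plus strand: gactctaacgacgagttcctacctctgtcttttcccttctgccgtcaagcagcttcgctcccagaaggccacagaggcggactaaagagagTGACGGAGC
Psmd4, chr3:95042615-95042714, minus strand: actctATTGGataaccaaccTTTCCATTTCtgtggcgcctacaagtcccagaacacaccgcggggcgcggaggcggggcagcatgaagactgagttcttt
Psmd1, chr1:86064519-86064618, plus strand: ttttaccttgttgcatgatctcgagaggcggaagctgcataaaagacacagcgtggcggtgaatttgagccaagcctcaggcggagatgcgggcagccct
Psmd11, chr11:80428515-80428614, plus strand: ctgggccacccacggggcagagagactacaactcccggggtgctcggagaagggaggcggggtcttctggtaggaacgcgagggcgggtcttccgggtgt
The windows end right before the start, and that of Psmd1 lies in an exon of non-coding Psmd1 transcripts in GENCODE M21. Motifs were searched on both strands in windows from 250 bases before to 50 after each start, for the 40 members with a window and the 10417 genes of the table with one. TGACNNNGC, an antioxidant-response type of motif bound by the products of Nfe2l1 and Nfe2l2, was found for 6 of 40 members (15%), against 17.0% of the table's genes. Among those 6 were Psmb5, 47 bases before its start, and Psmb6, 9 bases before. ACGTG, the core of the hypoxia response element, was found for 8 members (20%), against 29.0% of genes, and CCAAT for 14 (35%), against 42.6%. ACGTG can overlap TGACNNNGC, but did not in Psmb5. The interferon-stimulated response motif (a repeat of GAAA) was found for 5 members (12.5%), against 3.69% of genes: Psmb3, Psmd4, Psmd9, Psme1 and Psmg4. The windows of Psmd1 and Psmd11 held none of these motifs. Among genes that fell in KO, those of Psmb4, Psmc5, Psme2 and Psmg1 held none either. Those of Psma7, Psmb5, Psmb6, Psmd4 and Psmg4 held a match. A match is only a run of letters in these windows.

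In KO ventricles most proteasome genes were lower than in C on the deposited scale, led by the 20S assembly chaperone Psmg4 and the catalytic subunit Psmb6, while the 19S scaffold subunit Psmd1 was higher. The calls of Psmg4, Psmb6 and Psmd1 ended when the trend with transcript length and GC content was taken out. Of 47 members, 11 fell and 1 rose (limma, adjusted p below 0.05), against 7.01% of 13544 tested genes that were lower and 6.9% that were higher. The log2 difference was negative for 41 members, against 49.3% of all genes. Its median was -0.40 over the members and 0.01 over all genes. At an unadjusted p below 0.05 there were 24 members, against 29.1% of genes in either direction. Both KO libraries lay below all C libraries for 30 members, against 26.7% of genes, and above all of them for 3 members, Psmd1, Psmd11 and Psme3, against 27.5%. In DKO no member passed against C, and against KO Psmb8 rose and Psmd1 and Psmd11 fell.

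The direction in KO rests on how the libraries were scaled. As a plain share of reads, the members took 0.308, 0.163 and 0.272 percent in DKO, 0.367 and 0.345 percent in KO and 0.324, 0.332 and 0.303 percent in C, so the share was highest in KO. With values in proportion to plain library totals, 0 members were lower in KO than in C and 3 were higher, and the median of the members was 0.14. That scaling moved the median of all genes to 0.48, so that the members still lay below it. The 11 lower calls also depended on single libraries. They became 4 without KO 1 and 0 without KO 3, and 2, 2 and 3 without C 1, C 2 and C 3. Leaving out DKO 2, which enters the shared estimate of spread, gave 20 lower members, among them all 11, and 2 higher. Markers of several cell types moved with the comparison. Of the 9 cardiomyocyte markers, whose sums are given above, 1 was lower in KO than in C, Tnni3, with a median of -0.64 on the log2 scale. Actc1 alone went the other way, without a call, at 7865 and 8892 in KO and 6029, 7052 and 6425 in C (log2 0.37). Of 6 fibroblast markers, none at 0 reads, 3 were higher in KO than in C, the collagen genes Col1a1, Col1a2 and Col3a1. Lum, Dcn and Pdgfra had log2 differences of 0.63, 0.34 and -0.34, without a call. The 6 summed to 1102, 845 and 485 in DKO, 1408 and 1089 in KO and 694, 590.5 and 451 in C. Of 10 skeletal muscle markers, 9 were lower in KO than in C and 6 lower in DKO than in C (limma). Ckm, among the 9, stood at 1447 to 4239 in all libraries. The remaining marker, Acta1, went the other way, at 60.3, 111 and 860 in DKO, 2393 and 1564 in KO and 285, 513 and 518 in C. Acta1 had no call in KO against C (limma, adjusted p = 0.0886) and fell in DKO against KO (limma, adjusted p = 0.0181). Troponin Tnnt3 of fast muscle was 2.09, 1.84 and 0.720 in DKO, 0.177 and 0.225 in KO and 38.7, 9.37 and 73.4 in C. At 0 reads were Myh1 and Myh2 in DKO 3, Myh2 and Myh4 in KO 1, and Myh2, Myh4 and Pvalb in KO 3. In bulk tissue fewer cells of a type and less RNA per cell cannot be told apart, and the part of these markers in the results was not tested.

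**Figure D1:**
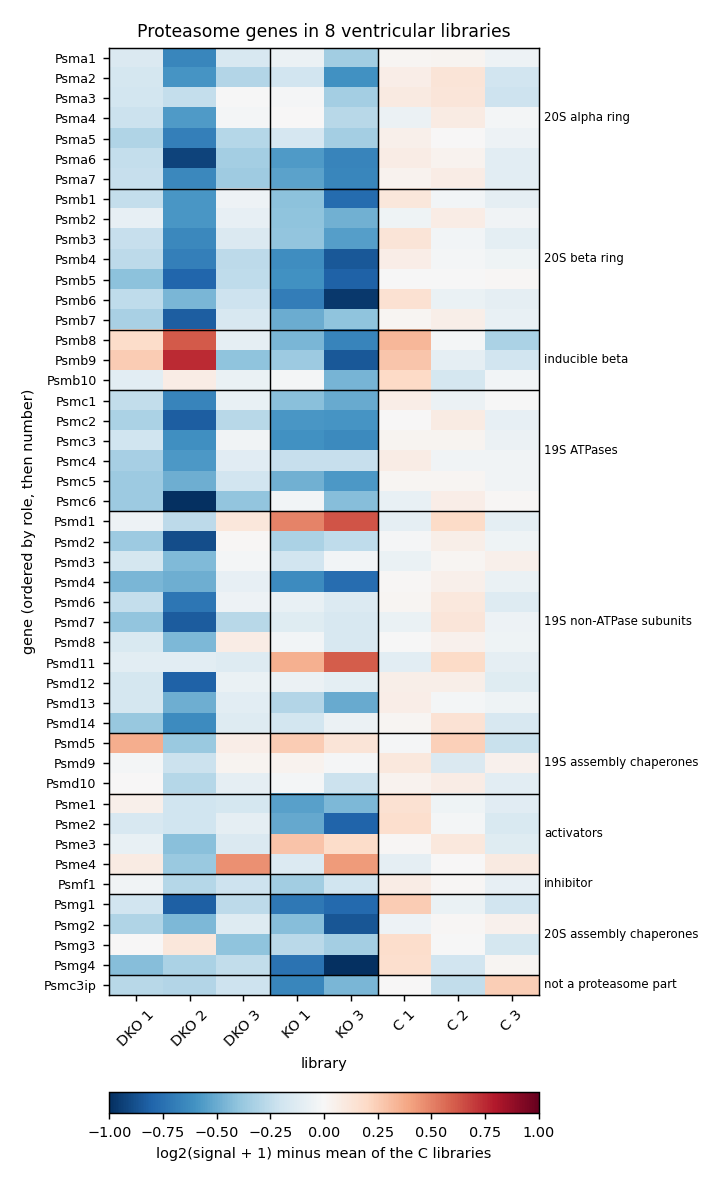
Log2(signal + 1) of each of the 47 genes (rows, ordered by role) in each of 8 libraries (columns), minus the mean of the C libraries; blue is lower and red is higher than C. Blue dominates in all DKO and KO libraries, with medians furthest below C in DKO 2, KO 1 and KO 3. Psmd1 and Psmd11 are red in KO, and Psmb8 and Psmb9 are red in DKO 2.

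By library, the median log2 distance of the members from the mean of C was -0.20, -0.49 and -0.13 in DKO 1, 2 and 3, -0.31 and -0.45 in KO 1 and 3, and 0.04, 0.02 and -0.08 in C 1, 2 and 3. DKO 2 lay as far below C as the KO libraries, and DKO 3 was the nearest to C of these 5. DKO 2 held the lowest value of 25 members and KO 3 that of 17, while no member was lowest in a C library. The highest value lay in a C library for 39 members.

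The alpha ring, which gates the core, had log2 differences between KO and C from -0.61 to -0.14, and 1 of its 7 genes fell. Psma7 was 91.6, 68.5 and 83.9 in DKO, 74.03 and 68.04 in KO and 110.4, 113 and 99.6 in C. Both KO libraries lay below the 3 C libraries, and so did the 3 DKO libraries. The fall in KO was -0.59 ± 0.17 (log2 scale, SE; limma, adjusted p = 0.035). Psma6 had a difference of -0.61 ± 0.20 (SE), with 66.7 ± 16.1 in DKO, 60.3 ± 2.78 in KO and 92.8 ± 6.04 in C (mean ± SD, n = 3, 2 and 3), but did not pass in KO against C (limma, adjusted p = 0.0621). Psma3 and Psma4 had the smallest differences of the ring between KO and C, -0.18 and -0.14 on the log2 scale, and KO and C overlapped for both.

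All 7 constitutive beta ring genes were lower in both KO libraries than in every C library, and 3 of them, Psmb4, Psmb5 and Psmb6, passed the test. Psmb6 (chromosome 11, 70525367 to 70527858, GRCm38) encodes the subunit that cuts after acidic residues. It was 135, 117 and 139.7 in DKO, 99.4 and 82.1 in KO and 179.5, 154 and 151 in C. The groups did not overlap: KO was lowest, DKO lay between and C was highest. The KO level was -0.83 ± 0.17 (SE, log2) against C (limma, adjusted p = 0.00846), and the DKO level was -0.31 ± 0.15 (SE) against C (limma, adjusted p = 0.60). Psmb5 (chromosome 14, 54614119 to 54618022) encodes the chymotrypsin-like subunit, the main target of proteasome inhibitor drugs. It was 108, 82.4 and 119.9 in DKO, 93.9 and 81.6 in KO and 143, 143 and 144 in C. C libraries were within a narrow range, and DKO 2 was as low as KO. Psmb5 fell in KO by 0.71 ± 0.18 (log2 scale, SE; limma, adjusted p = 0.0227). Psmb4, a structural subunit, was 154, 114 and 154 in DKO, 119.6 and 102 in KO and 193, 182 and 179 in C, and KO and DKO both lay below C without overlap. The difference of KO from C was -0.73 ± 0.18 (SE) for Psmb4 (limma, adjusted p = 0.0188). Psmb7, the trypsin-like subunit, was 105, 73.5 and 117 in DKO, 92.6 and 98.8 in KO and 133, 136 and 124 in C, and did not pass in KO against C (limma, adjusted p = 0.15).

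**Figure D2:**
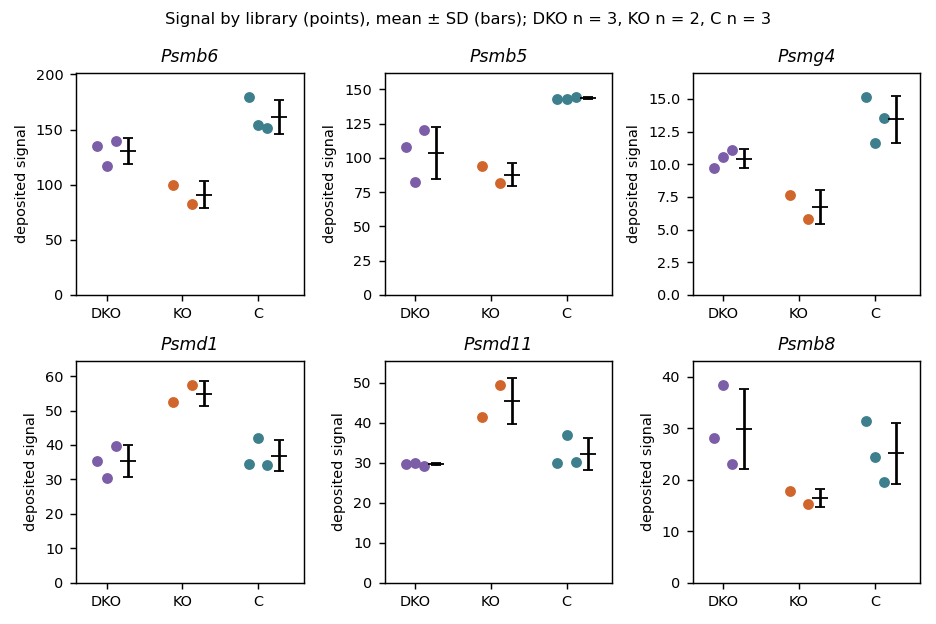
Deposited signal of 6 genes (vertical axes, from 0) in DKO, KO and C libraries; points are libraries and bars are mean ± SD (n = 3, 2 and 3). Psmb6, Psmb5 and Psmg4 are lowest in KO, Psmd1 and Psmd11 are highest in KO, and Psmb8 is spread widely in DKO and C.

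Of the 3 inducible subunits of the immunoproteasome, 1 was higher in DKO than in KO, and none passed against C. Psmb8 (chromosome 17, 34197721 to 34201454) was 28.2, 38.5 and 23.1 in DKO, 17.8 and 15.3 in KO and 31.4, 24.4 and 19.7 in C. It was higher in every DKO library than in both KO libraries, and DKO and C overlapped. Psmb8 rose in DKO against KO, by 0.79 ± 0.23 (log2 scale, SE; limma, adjusted p = 0.0457), which is 1 of 47 members against 6.08% of all genes that were higher. That call ended under 10 of 21 alternatives, among them leaving out DKO 1, DKO 2, KO 1, KO 3, C 2 or C 3 (limma, adjusted p from 0.0508 to 0.28), and on plain library totals the difference was 0.16 (limma, adjusted p = 0.61). Psmb9, its neighbour on chromosome 17 beside the peptide transporter gene Tap1, was 15.7, 22.5 and 9.59 in DKO, 9.900 and 6.81 in KO and 16.01, 12.2 and 11.3 in C, with DKO 2 highest and KO 3 lowest of all 8 libraries (DKO against KO, limma, adjusted p = 0.0961). Psmb10 was 66.5, 75.4 and 68.2 in DKO, 70.7 and 51.6 in KO and 82.6, 63.5 and 70.2 in C, and all 3 groups overlapped.

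The log2 ratio of each inducible subunit to the constitutive one it replaces is taken within a library, so that its scaling cancels but for the pseudocount of 1. For Psmb8 to Psmb5 it was -1.90, -1.08 and -2.33 in DKO, -2.34 and -2.34 in KO and -2.15, -2.50 and -2.81 in C. For Psmb9 to Psmb6 it was -3.02, -2.33 and -3.73 in DKO, -3.20 and -3.41 in KO and -3.41, -3.55 and -3.63 in C. DKO 2 had the highest value of both ratios. For Psmb8 to Psmb5 all 3 DKO libraries lay above both KO libraries, DKO 3 by a narrow margin, and the other pairs of groups overlapped for both ratios. The ratio of Psmb10 to Psmb7 was -0.65, 0.04 and -0.77 in DKO, -0.38 and -0.92 in KO and -0.68, -1.09 and -0.81 in C. In 9 two-sided exact permutation tests over libraries (3 ratios, 3 pairs of groups), p was 0.20 to 0.70 and the Benjamini-Hochberg adjusted p 0.60 to 0.70, where the smallest p the design allows is 0.10. The sum of 10 interferon response genes was highest in DKO 2, as were Psmb8 and Psmb9. It was 158, 285 and 172 in DKO, 149.5 and 163 in KO and 201, 174 and 181 in C, and none passed in any comparison. Irf7 and Stat2 were the largest parts of it in DKO 2, at 67.0 and 64.7. Not all these genes peaked there: Rsad2 and Isg15 were highest in C 1, as was Psmb10. The 5 lymphocyte markers in the table, all with reads in every library, summed to 6.73, 12.9 and 7.75 in DKO, 7.97 and 3.83 in KO and 10.1, 6.12 and 8.19 in C. Their part in the levels of Psmb8 and Psmb9 was not tested.

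Of 10 genes of antigen presentation that work with the immunoproteasome, 0 passed limma in each of the 3 comparisons. Tap1 was 24.8, 35.8 and 21.3 in DKO, 18.3 and 16.6 in KO and 23.1, 20.04 and 22.03 in C. DKO 2 was highest, as for Psmb9, and the KO libraries were lowest. Irf1, a transcription factor of the interferon response, was 28.2, 39.7 and 23.4 in DKO, 22.2 and 16.00 in KO and 29.2, 23.3 and 21.96 in C.

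In the ATPase ring of the 19S cap, all 6 Psmc genes had a negative difference in KO against C, from -0.62 to -0.23 on the log2 scale, and Psmc3 and Psmc5 fell. Psmc5 was 82.9, 76.02 and 93.5 in DKO, 76.2 and 71.6 in KO and 108, 108 and 104 in C. The KO and DKO libraries overlapped, and all lay below C. Against C, KO stood at -0.53 ± 0.15 (SE; limma, adjusted p = 0.0393), and at 0.0074 on plain library totals. Psmc3, among the most abundant members, was 186, 139 and 209 in DKO, 140.3 and 137 in KO and 217, 218 and 206 in C. DKO 3 reached the C libraries and DKO 2 the KO libraries. Its difference between KO and C was -0.62 ± 0.19 (SE; limma, adjusted p = 0.0476), close to the threshold. That call ended under 12 of 21 alternatives, the most of the called members, among them edgeR (adjusted p = 0.0548), voom (adjusted p = 0.0537) and each of DKO 1, KO 1, KO 3, C 1, C 2 and C 3 left out.

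Of the 11 non-ATPase subunits of the cap, Psmd4 fell in KO and Psmd1 rose, with log2 differences from -0.70 to 0.56 and a median of -0.11. Psmd4, which encodes a receptor for ubiquitin chains, was 89.5, 87.4 and 116 in DKO, 79.2 and 72.1 in KO and 124, 127 and 118 in C. KO was lowest, DKO lay between and C was highest, without overlap. The difference of KO from C was -0.70 ± 0.17 (SE; limma, adjusted p = 0.0181). Psmd1 (chromosome 1, 86064387 to 86139151) encodes the large scaffold on which other cap subunits sit. It was 35.5, 30.5 and 39.8 in DKO, 52.4 and 57.4 in KO and 34.4, 42.2 and 34.2 in C. Both KO libraries lay above the 6 others, and DKO and C overlapped. Psmd1 was 1.48-fold its C level in KO (log2 0.56 ± 0.17 SE; limma, adjusted p = 0.0443) and fell in DKO against KO by 0.63 ± 0.17 (log2 scale, SE; limma, adjusted p = 0.032). Psmd11, encoding a subunit of the lid that is known from human and worm cells to favour assembly of capped proteasomes, was 29.8, 29.9 and 29.3 in DKO, 41.5 and 49.5 in KO and 29.8, 36.9 and 30.1 in C. It fell in DKO against KO by 0.60 ± 0.16 (log2 scale, SE; limma, adjusted p = 0.0317), and was 0.48 ± 0.16 (SE) in KO against C (limma, adjusted p = 0.0621). These 2 are 4.26% of the members, against 5.73% of all genes that were lower in DKO than in KO. Both calls of DKO against KO ended without KO 1, KO 3, C 1, C 2 or C 3, and so did that of Psmd1 in KO against C. These calls also ended when the trend with transcript length and GC content was taken out (limma, adjusted p from 0.0511 to 0.0736). That of Psmd1 in KO against C ended with median centring (limma, adjusted p = 0.0807) and with a replicate block (limma, adjusted p = 0.0770) as well. Psmd2, the companion scaffold to Psmd1, was 137, 94.6 and 177 in DKO, 142 and 147 in KO and 175, 183 and 171 in C, with no call (KO against C, limma, adjusted p = 0.44). Psmd14, the deubiquitinase of the cap, was 20.8 ± 3.78 in DKO, 24.9 ± 1.602 in KO and 27.2 ± 2.97 in C (SD). Psmd3, Psmd6, Psmd8 and Psmd12 had log2 differences of -0.11, -0.10, -0.09 and -0.08 in KO against C, none past the threshold.

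**Figure D3:**
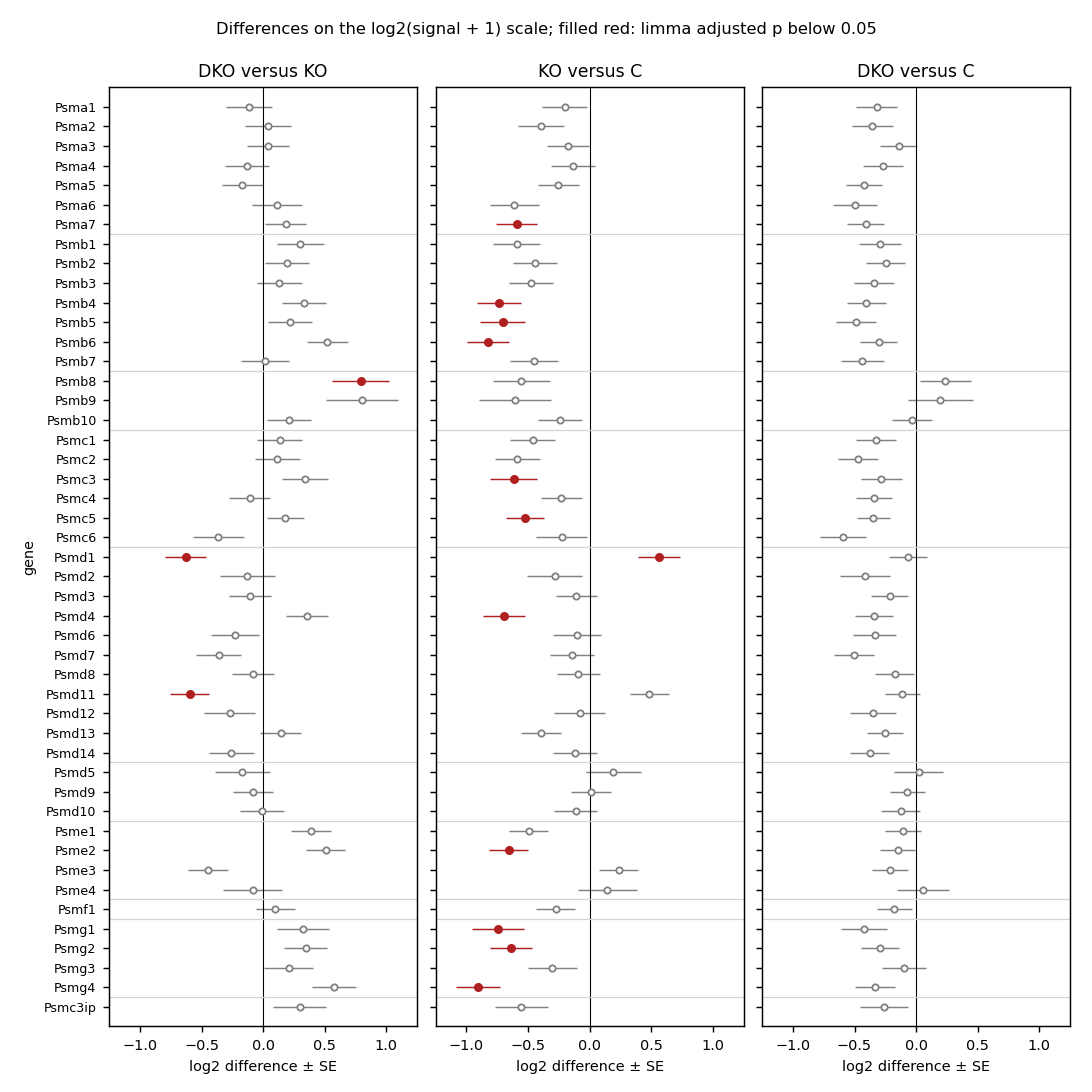
Log2 difference with its SE (horizontal axes) of each of the 47 genes in DKO versus KO, KO versus C and DKO versus C; red points passed limma at an adjusted p of 0.05. In the middle panel 11 genes pass below 0 and Psmd1 above it; in the right panel none passes, with 43 of 47 below 0.

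Psmd1 and Psmd11 were also set against the rest of the cap, as ratios chosen after the values were seen and given without a test. The log2 ratio of Psmd1 to the mean of 15 other 19S genes (those except Psmd1 and Psmd11) was -0.90, -0.74 and -0.91 in DKO, -0.36 and -0.17 in KO and -1.24, -0.99 and -1.18 in C. For Psmd11 it was -1.14, -0.77 and -1.34 in DKO, -0.69 and -0.38 in KO and -1.44, -1.18 and -1.36 in C. Both KO libraries had the highest values of each ratio. Over the whole cap, the log2 ratio of the 17 Psmc and Psmd subunit genes to the 14 constitutive core genes was -0.30, -0.24 and -0.19 in DKO, -0.10 and 0.08 in KO and -0.32, -0.24 and -0.25 in C. The 17 include Psmd1 and Psmd11. The longest protein-coding transcripts were of 766 to 2911 nucleotides for the core genes and 1316 to 3112 for the cap genes. Differences in KO went with this length, as given below, and its part in the ratio was not tested. KO did not overlap with DKO or C in this ratio. The difference was 0.26 between KO and C and -0.23 between DKO and KO, each with p = 0.10 in a two-sided exact permutation test, the smallest the design allows (adjusted p = 0.15 over 3 tests), and 0.03 between DKO and C (exact permutation p = 0.50).

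**Figure D4:**
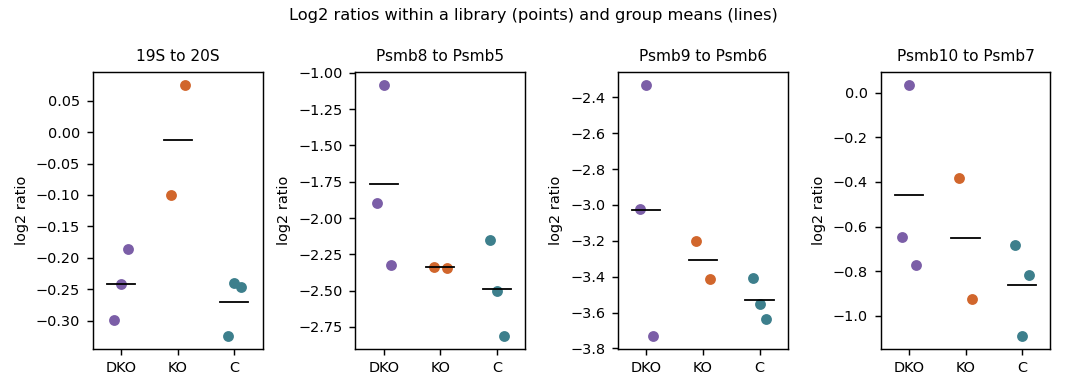
Log2 ratio within a library (vertical axes) of 19S to 20S genes and of each inducible beta subunit to its constitutive counterpart, in DKO, KO and C; points are libraries and lines are group means. The 19S to 20S ratio is -0.10 and 0.08 in KO, above all DKO and C libraries, and DKO 2 is highest in the 3 other panels.

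The chaperones that build the 20S core were the group with the largest negative median in KO against C. That median was -0.69 on the log2 scale, and Psmg1, Psmg2 and Psmg4 fell. Psmg4, the member with the largest change, was 9.68, 10.5 and 11.1 in DKO, 7.62 and 5.81 in KO and 15.2, 11.6 and 13.6 in C. KO was lowest and C highest, without overlap among the 3 groups. The difference of KO from C was -0.91 ± 0.18 (SE; limma, adjusted p = 0.0075), and DKO did not pass against KO (log2 0.58 ± 0.18 SE; limma, adjusted p = 0.0592). Psmg1 was 17.9, 11.3 and 17.02 in DKO, 12.2 and 11.6 in KO and 24.8, 19.7 and 17.9 in C, and DKO 2 was below both KO libraries (KO against C, limma, adjusted p = 0.0363). Psmg2, with which Psmg1 pairs, was 19.3, 17.3 and 21.9 in DKO, 17.7 and 12.9 in KO and 23.2, 24.3 and 24.7 in C (KO against C, limma, adjusted p = 0.0308). Psmg3, the partner of Psmg4, was 8.02 ± 1.62 in DKO, 6.72 ± 0.264 in KO and 8.58 ± 1.16 in C (SD), without a call. The 3 chaperones of the 19S cap, Psmd5, Psmd9 and Psmd10, differed between KO and C by 0.19, 0.01 and -0.11 on the log2 scale, with adjusted p of 0.62 to 0.97 (limma).

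Of the 4 activators, 1 fell in KO, Psme2, which is induced by interferon and forms a ring with Psme1. Psme3 and Psme4 act in the nucleus. Psme2 was 49.02, 47.6 and 51.6 in DKO, 38.2 and 31.1 in KO and 61.99, 54.3 and 49.3 in C, and fell in KO against C by 0.66 ± 0.16 (log2 scale, SE; limma, adjusted p = 0.0193). A near-identical copy, Psme2b, has no row among the members, so whether reads were shared between them was not tested. Psme1 was 107, 89.3 and 90.7 in DKO, 70.3 and 75.1 in KO and 114, 99.8 and 94.99 in C. KO lay below all other libraries for both genes, though Psme1 did not pass (limma, adjusted p = 0.0591 against C). Psme3 was 31.00, 24.3 and 29.6 in DKO, 40.1 and 37.4 in KO and 33.1, 35.4 and 30.1 in C, highest in KO without overlap (KO against C, limma, adjusted p = 0.36). Psme4 was 128, 93.1 and 166 in DKO, 109.7 and 162 in KO and 113, 121 and 128 in C, and all groups overlapped. The inhibitor Psmf1 was 18.00, 14.96 and 15.9 in DKO, 14.3 and 15.9 in KO and 19.5, 18.6 and 17.4 in C (KO against C, limma, adjusted p = 0.27).

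In DKO against C, 0 members passed limma, against 0.0812% of all genes that were lower and 0.0738% that were higher. At an unadjusted p below 0.05 there were 14 members, against 8.5% of all genes. No member was called by edgeR, DESeq2 or voom either. The log2 difference was negative for 43 of 47 members, against 47.8% of genes, with a median of -0.29, and of -0.15 without DKO 2. All 3 DKO libraries lay below all C libraries for 20 members, against 7.25% of genes, and above them for 0, against 6.5%. The smallest p was that of Psmc6, an ATPase of the cap, at 43.5, 27.4 and 42.5 in DKO, 55.2 and 41.6 in KO and 53.4, 58.9 and 56.7 in C. DKO was below C in 3 of 3 libraries, with DKO 2 lowest (log2 -0.59 ± 0.19 SE; limma, adjusted p = 0.49). Psmd7, a lid subunit that carries Psmd14, was 52.8, 38.6 and 57.4 in DKO, 64.03 and 62.2 in KO and 66.5, 75.97 and 67.3 in C, lowest in DKO without overlap (DKO against C, limma, adjusted p = 0.49). KO and DKO were set against the same C libraries, so these 2 sets of differences are not independent.

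In DKO against KO the shares of members called were at or below the background. Besides the 3 calls given above, the log2 difference was positive for 28 and negative for 19 members, with a median of 0.11, against 49.2% of genes that were negative and a median of 0.01. At an unadjusted p below 0.05 there were 9 members, against 28.9% of genes. No overlap was seen for 7 higher members, against 20.5% of genes, and 4 lower ones, against 21.1%. The 7 were Psmb6, Psmb8, Psmd4, Psme1, Psme2, Psmg4 and Psmc3ip, and the 4 were Psmd1, Psmd7, Psmd11 and Psme3. On plain library totals 0 members were higher and 16 lower in DKO than in KO, with a median of -0.54 over the members and -0.57 over all genes. Psmc3ip, which is not a proteasome gene, was 1.997 ± 0.0922 in DKO, 1.45 ± 0.235 in KO and 2.62 ± 0.613 in C (SD), the lowest level among the 47 rows, without a call.

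The differences in KO went with transcript length. Across the 47 members, Spearman's rho of the log2 difference between KO and C with the length of the longest protein-coding transcript was 0.62, and with its GC content -0.47. Across all 13533 genes with a length these were 0.28 and -0.07. The points share the same 5 libraries and genes are not independent replicates, so no p is given. The members were short, with a median of 1440 nucleotides against 3114 for all genes. Among all genes, the median difference was -0.55 up to 1000 nucleotides, -0.225 up to 1500, -0.07 up to 2000 and 0.07 above (ranges set after the values were seen). In the same order, 37.4%, 16.5%, 7.33% and 3.43% of genes were lower in KO. The 7, 17, 11 and 12 members in these ranges had medians of -0.66, -0.49, -0.46 and -0.05, each below that of all genes. Psmg4 (555 nucleotides) and Psmb6 (798) are in the first range, and Psmd1 (3112) and Psmd11 (2848) in the last. When each library was corrected for its trend with length and GC content, 4 members were lower in KO, Psmb1, Psmb4, Psmc2 and Psmd4, and 0 higher, against 5.48% of genes that were lower. The median of the members was then -0.21. Of the 11 genes called lower without this correction, 2 stayed so, Psmb4 and Psmd4. Psmg4 was then -0.25 (limma, adjusted p = 0.36) and Psmb6 -0.37 (limma, adjusted p = 0.0954) on the log2 scale.

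**Figure D5:**
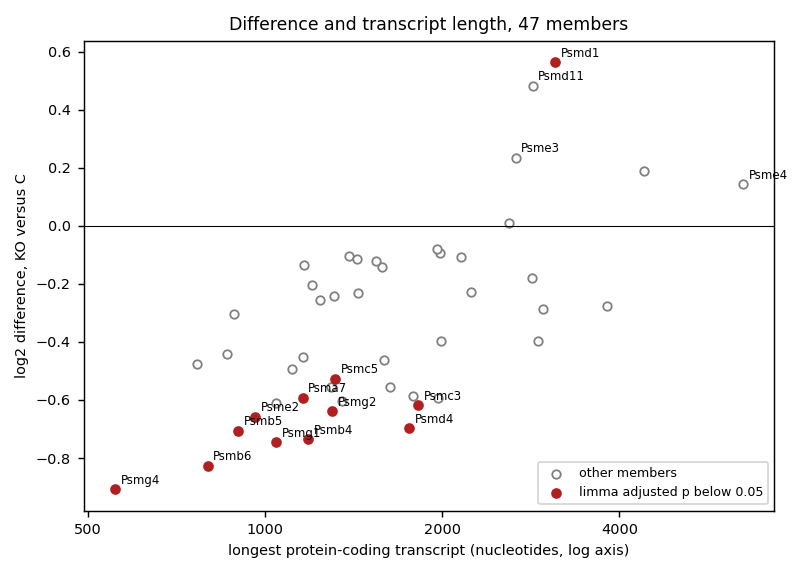
Log2 difference between KO and C (vertical axis) of each of the 47 genes by the length of its longest protein-coding transcript (horizontal log axis, nucleotides); red points passed limma. Genes that fell lie below 2000 nucleotides, and the only one that rose, Psmd1, is among the longest.

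In signal per kilobase, Psmb6 had the highest mean level in each group, 164 in DKO, 114 in KO and 202 in C. Psmb4 and Psmb5 followed, at 119 and 115 in DKO, 93.8 and 97.6 in KO, and 156 and 159.6 in C. The libraries of Psmb4 and Psmb5 overlapped within each group, so these neighbours do not differ in order beyond their spread. At the other end of the 46 proteasome genes, Psmd5 had 2.300 in DKO, 2.56 in KO and 2.24 in C, and Psmf1 4.27, 3.96 and 4.86 in the same groups.

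Genes that work with the proteasome but fall outside the name rule were read from lists. The background shares are those given above for each comparison. Among 6 other parts and assembly factors in the table, 1 fell in KO: Sem1, a small subunit of the cap, was 102, 80.6 and 115 in DKO, 71.00 and 51.9 in KO and 119, 114 and 109.6 in C. KO lay below all other libraries, at -0.90 ± 0.19 (SE, log2) relative to C (limma, adjusted p = 0.01), and Sem1 rose in DKO against KO (log2 0.68 ± 0.19 SE; limma, adjusted p = 0.0378). Pomp, the maturation factor of the core, was 71.6, 63.7 and 84.4 in DKO, 70.6 and 53.6 in KO and 92.8, 94.5 and 87.1 in C (KO against C, limma, adjusted p = 0.0529). Among ubiquitin genes, Rps27a, which encodes ubiquitin fused to a ribosomal protein, fell in KO. It has processed pseudogenes, so its counts are uncertain where reads match more than 1 copy. It was 246, 287 and 277 in DKO, 209 and 134 in KO and 339, 283 and 278 in C (KO against C, log2 -0.83 ± 0.21 SE; limma, adjusted p = 0.0216). Ubb, a polyubiquitin gene, was 565, 509 and 570.1 in DKO, 502 and 438 in KO and 714, 697 and 625 in C, without a call (KO against C, limma, adjusted p = 0.0859).

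None of the 8 proteasome-bound enzymes and transcription factors, of 8 shuttle and segregase genes or of 3 muscle atrophy ligase genes passed limma in any comparison. The median log2 differences between KO and C were 0.25, 0.12 and 0.13 for these 3 lists. Nfe2l1 was 255, 194 and 295 in DKO, 321 and 370.2 in KO and 274, 306 and 288 in C (KO against C, limma, adjusted p = 0.44), with the highest level in KO 3. Usp14, a deubiquitinase bound to the cap, was 24.4, 17.8 and 27.5 in DKO, 32.6 and 31.05 in KO and 25.5, 23.2 and 20.7 in C (KO against C, limma, adjusted p = 0.14). Uchl5, the only 1 of the 8 with a negative difference between KO and C, was 12.6, 12.1 and 14.0 in DKO. It was 10.2 and 8.13 in KO and 14.4, 14.0 and 11.2 in C (KO against C, log2 -0.48, limma, adjusted p = 0.0912). Trim63, a ubiquitin ligase of muscle that marks sarcomere proteins, was 57.99, 40.9 and 79.8 in DKO, 91.9 and 105 in KO and 76.4, 87.6 and 70.2 in C, highest in KO (DKO against KO, limma, adjusted p = 0.056). Fbxo32, of the same list, was 49.8, 31.1 and 55.6 in DKO, 60.0 and 62.2 in KO and 66.6, 78.9 and 65.8 in C. KO against C was thus -0.20 for Fbxo32, against 0.34 for Trim63 and 0.13 for Fbxo30 (log2).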

How the data were processed

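Poly(A) RNA of ventricular tissue was fragmented, primed with random hexamers and sequenced by Illumina, per the labels' protocols. For the authors' steps, GRCm38, limma, RSEM 1.3.1 and cutadapt are named, without their roles, per the submitters' processing notes. Which annotation was counted, and whether by strand, is not given in the sources used here. Deposited values are a signal per gene: each value was a whole number of reads plus 0.5, divided by an effective library size and multiplied by a constant, for 100% of values within 0.001 reads. The effective size was the library total times a TMM factor, as recomputed from the recovered counts.

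Here log2(value + 1) was fitted with limma 3.58.1 (R 4.3.3; trended variance, 3 group means over 8 libraries) on the 13544 genes that reached 1 in 2 or more libraries, and p-values were adjusted over these by Benjamini-Hochberg (threshold 0.05). Fold changes on this scale understate those of low genes. On the recovered reads, edgeR 4.0.16 called 1049 genes higher and 996 lower in KO than in C, and DESeq2 1.42.0 called 1176 and 1314; limma called 934 and 949. The script's steps were tested on simulated data. Coordinates and lengths are from GENCODE M21 (GRCm38), to which 13666 of 13677 rows matched; the 11 other rows have no name and stayed in the fit. In full were given the members past the threshold, the first of each group, the catalytic pairs, the activators and the inhibitor. A single gene of the related lists is not reported here. The members and lists were chosen with earlier results of these data known. Alternatives were plain totals, other normalisations, tests, pseudocounts and filters, a replicate block, 2 groups only, a length and GC trend, and each library left out.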

Additional observations from a re-analysis of the deposited data

How the results depend on the processing

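Across the 21 alternatives, the comparison of KO with C moved most with plain library totals, which gave 3 higher, 0 lower and a median of 0.14, with Psmc5 at 0.0074, and with the libraries used. A fit of the 2 groups compared alone gave 2 higher and 22 lower. DESeq2 gave 2 higher and median centring 0 higher. Taking out the trend of length and GC content gave 0 higher, 4 lower and a median of -0.21. Leaving out each library in turn gave 0 to 2 higher, 0 to 20 lower and medians from -0.45 to -0.31. Apart from plain totals, the causes of these changes were not tested.

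In DKO against KO, plain totals gave 0 higher, 16 lower and a median of -0.54. DESeq2 gave 4 higher and a filter of 5 gave 2 higher. A fit of the 2 groups alone, and the fit without the length and GC trend, each gave 0 higher and 0 lower, the second with a median of -0.0025. Leaving out each library gave 0 to 4 higher, 0 to 2 lower and medians from 0.02 to 0.18. In DKO against C every setting gave 0 calls, and leaving out each library gave medians from -0.39 to -0.15.

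Whether replicate numbers pair the libraries could not be decided from correlations of their deviations from group means. Same-numbered ones correlated at 0.19, -0.27 and 0.14 between DKO and C. They correlated at 0.22 and 0.14 between KO and C, and at -0.01 and 0.10 between DKO and KO. Libraries of different numbers ranged from -0.36 to 0.21, from -0.22 to 0.06 and from -0.10 to 0.10 in the same order. With 2 KO libraries, the deviations of KO 1 and KO 3 mirror each other, so their correlations are not independent. With the replicate number as a block, KO against C gave 0 higher and 12 lower members, DKO against KO gave 0 higher and 1 lower, and DKO against C gave 0 of either.

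Ratios reversed when single libraries were left out. In KO against C, Psmb8 to Psmb5 became -0.012 without C 3 and Psmb10 to Psmb7 became -0.0597 without KO 1. In DKO against KO, without DKO 2, Psmb9 to Psmb6 became -0.0702 and Psmb10 to Psmb7 became -0.056, and the second became -0.077 without KO 3. In DKO against C, 19S to 20S became -0.00035 without DKO 3. Over leave-one-out settings the ratio ranges were as follows. For 19S to 20S they were -0.32 to -0.14 in DKO against KO, 0.17 to 0.35 in KO against C and -0.00035 to 0.0563 in DKO against C. For Psmb8 to Psmb5 they were 0.23 to 0.85, -0.012 to 0.32 and 0.38 to 1.001 in the same order of comparisons. For Psmb9 to Psmb6 they were -0.0702 to 0.63, 0.12 to 0.33 and 0.15 to 0.85, and for Psmb10 to Psmb7 -0.077 to 0.46, -0.0597 to 0.48 and 0.15 to 0.56.

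Of the named genes' values under alternatives, 481 kept direction and call, 102 lost the call, 17 gained one and 8 turned sign. Some of these could not change direction. A changed filter, a fit of the 2 groups alone or leaving out a library of the third group left the log2 difference as it was. The 481 also include genes without a call that stayed without one, so they are no measure of how stable the calls were. Apart from Psmc5, the 8 that turned sign had no call and none after the change. In KO against C, plain totals gave Psmb7 0.084, Psmb10 0.29, Psme1 0.0400 and Psmf1 0.23, and Psme4 was -0.14 without KO 3 (-0.14 to 0.42 over the libraries left out). In DKO against KO, plain totals gave Psme2 -0.14 and Psmg4 -0.013. With 2 or 3 libraries a group, depth was not the limit for most members: 3 reads are worth 0.104 to 0.283 in signal, and the lowest member had 20 reads.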

Other observations

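Other cell types were followed through marker lists over the same libraries. The 9 macrophage markers summed to 298, 281 and 225 in DKO, 296 and 313 in KO and 229.9, 216 and 214 in C, and 1 of them was higher in KO than in C (limma). The 7 endothelial markers summed to 1696, 2043 and 1091 in DKO, 1199.7 and 1013 in KO and 2030.2, 1475 and 1399 in C. The 1 lower in KO than in C was Fabp4, at 452 and 334 in KO and 1114, 817 and 735 in C. The others had no call between KO and C and went both ways. Log2 differences were 0.46, 0.12 and 0.15 for Pecam1, Cdh5 and Emcn, and -0.55, -0.34 and -0.28 for Kdr, Tek and Tie1. The 5 mural markers, of pericytes and smooth muscle, summed to 767, 768 and 511 in DKO, 718 and 641 in KO and 578, 493 and 531 in C, with 1 higher in KO than in C. The 5 erythroid markers summed to 2203, 6796 and 3316 in DKO, 2569 and 2765 in KO and 5534, 5599 and 2706 in C, without a call. Of the 2 neutrophil markers in the table the sums were 1.61, 8.12 and 2.996 in DKO, 1.46 and 0.624 in KO and 3.12, 1.33 and 1.98 in C. The 3 atrial markers summed to 40.5, 18.4 and 2.79 in DKO, 63.8 and 3.55 in KO and 15.5, 135 and 4.54 in C, with C 2 highest.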
